A study of Mus musculus with 7 samples.

Results

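LIM homeobox factors, LIM-only proteins and their shared adaptor were followed across sorted Pomc and Npy neurons of the embryonic mouse arcuate nucleus. The group was fixed by gene symbol and holds 10 genes of the 18335 rows of the deposited table: the LIM homeobox genes Isl1, Lhx1, Lhx2, Lhx5, Lhx6 and Lhx9, the LIM-only genes Lmo1, Lmo3 and Lmo4, and the adaptor gene Ldb1. All 10 symbols were found, each on 1 row. RNA came from dissected arcuate nuclei at E15.5 (an embryonic age in days), from which Pomc neurons (4 libraries) and Npy neurons (3 columns) were purified by fluorescence-activated sorting. Pomc neurons make the precursor of appetite-suppressing melanocortin peptides, and Npy neurons make a peptide that drives food intake. The study asked which regulators set the identity of the appetite-suppressing neurons. Every library was labelled with the same age and source tissue. The sources used here do not give genotype, strain, the reporter behind the sort or the number of embryos per library. Nothing says that replicates came from separate litters, so each p-value reflects the spread among these libraries, and that spread may be technical.

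LIM domains are zinc-binding folds that hold proteins together. LIM homeobox factors join such domains to a DNA-binding homeodomain, and Ldb1 binds the LIM domains and pairs with itself, so that it bridges several factors on DNA. LIM-only proteins have LIM domains without a homeodomain and compete for Ldb1, so the proportions of the 3 kinds of protein matter as well as their levels. In the hypothalamus Isl1 is required for arcuate neurons, Pomc neurons among them, Lhx1 and Lhx5 are known from the mammillary region, Lhx6 from GABAergic neurons, Lhx2 from progenitors and tanycytes, and Lhx9 from orexin neurons.

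The deposited values carry no unit and were taken as TPM (transcript abundance scaled for gene length and to the same total in every library). On that reading, levels of different genes can be set side by side. The column of Npy replicate 3 was left out, because in all 15223 genes with a value it equals the mean of the other Npy columns multiplied by a whole percent, with a tolerance of 0.0001 percentage points, between 95 and 105. All comparisons are therefore between 4 Pomc and 2 Npy libraries. The genes that name the groups followed the labels, and other arcuate markers are given with the cell type markers below. Pomc stood between 352 and 770 TPM across Pomc libraries and at 24.0 and 59.4 TPM in Npy replicates 1 and 2, and Npy stood at 728 and 513 TPM in its own libraries and at 2.11 to 152 TPM in the Pomc libraries. In whole-population RNA, fewer cells with a transcript and less transcript per cell cannot be told apart. Between 12493 and 14933 genes were above 0 per library, short RNA genes took 10.8 to 13.2% of the total in the Pomc libraries and 14.1 and 17.3% in the Npy libraries, and TPM keeps no read depth, so no counting interval can be given. A value of 0 is given below as listed at 0, since without counts it need not mean absence.

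Both neuron types carried Isl1 as their dominant LIM factor and Ldb1 as its abundant adaptor, and they differed in the LIM genes around that pair. Lhx5 and Lmo3 were higher in Pomc neurons, by 38.5-fold and 3.45-fold in mean TPM, the former against Npy values of 2.17 and 0.0501 TPM that are far apart. Lhx6 and Lhx1 were listed at low levels in both Npy libraries and at or near 0 in the Pomc libraries, a difference that did not pass the test. In the test across all genes (limma on log2(TPM + 1), Benjamini-Hochberg adjusted p under 0.05 over 13845 genes with at least 1 TPM in at least 2 libraries), 2 of the 9 tested members were higher in Pomc neurons, against 0.289% of all tested genes. No member was higher in Npy neurons by limma, against 0.123% of all genes, and 5 of the 9 had an unadjusted p under 0.05, against 7.36% of all genes. The groups did not overlap in 2 members with higher values in Pomc (8.05% of all genes) and in 3 with higher values in Npy (7.86%). The median log2 difference of the 9 was 0.01, against 0.02 over all tested genes. Lhx6 passed the filter only through the Npy libraries, and Lhx9 did not pass it.

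**Figure D1:**
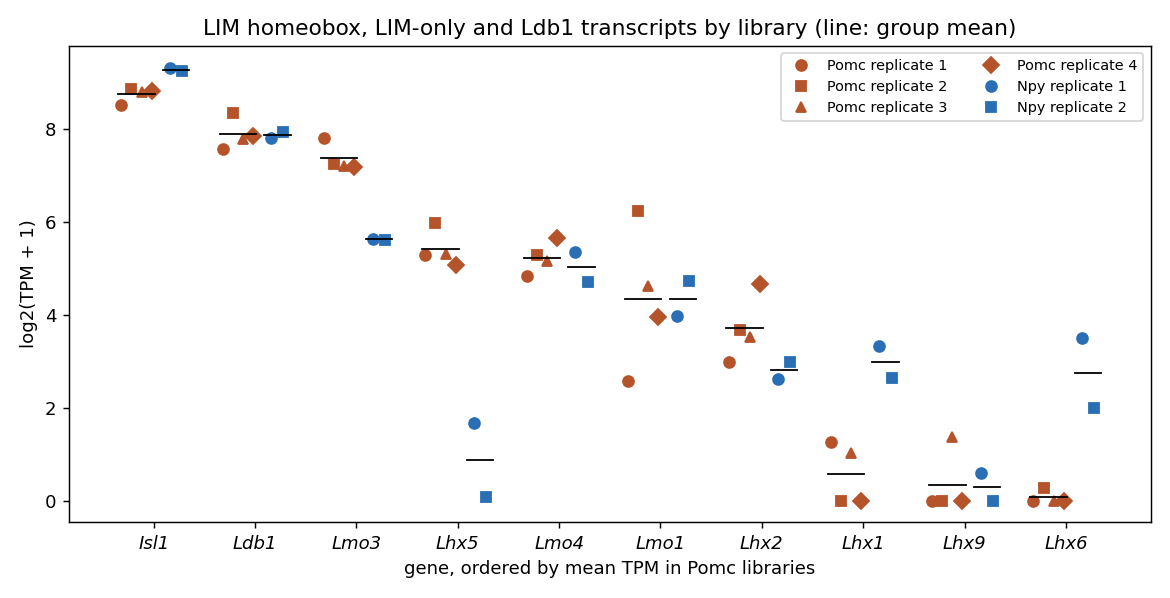
Expression of the 10 genes as log2(TPM + 1) on the y axis, with 1 point per library (orange, 4 Pomc libraries; blue, 2 Npy libraries) and a line at each group's mean. Lhx5 and Lmo3 stand higher in every Pomc library, Isl1, Lhx1 and Lhx6 stand higher in both Npy libraries, and Ldb1, Lmo4, Lmo1, Lhx2 and Lhx9 overlap.

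The order of the levels was the same at the top in both groups. In the Pomc libraries mean levels ran from Isl1 (432 TPM) through Ldb1 (239.5), Lmo3 (167), Lhx5 (42.6), Lmo4 (37.3), Lmo1 (29.3) and Lhx2 (13.4) to Lhx1, Lhx9 and Lhx6, which were all under 1 TPM. Isl1 stood apart from Ldb1, Lmo3 from Lhx5 and Lhx2 from Lhx1, while the ranges of the other neighbours in that order overlapped. In the Npy libraries the order was Isl1 (619 TPM), Ldb1 (233), Lmo3 (48.2), Lmo4 (32.3), Lmo1 (19.9), Lhx1 (7.14), Lhx6 (6.64), Lhx2 (6.03), Lhx5 (1.11) and Lhx9 (0.25). There the ranges of Lmo4 and Lmo1 overlapped, as did those of Lhx1, Lhx6 and Lhx2 in turn, and those of Lhx5 and Lhx9. Lhx5 thus held the fourth place in Pomc neurons and the ninth in Npy neurons.

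Isl1 (chromosome 13, 116298281 to 116309689, GRCm38), the LIM homeobox gene that starts and maintains Pomc expression, was among the most abundant transcripts of both populations, with rank 211 by mean TPM among all tested genes. It stood at 365, 465, 444 and 452 TPM in Pomc replicates 1 to 4 and at 637 and 601 TPM in Npy replicates 1 and 2. Both Npy libraries were above every Pomc library, and Pomc replicate 1 was the lowest. The Npy mean was 1.43 times the Pomc mean. The log2 difference (Pomc minus Npy) was -0.53 ± 0.17 (SE), with a 95% interval from -0.91 to -0.14, and it did not pass over all genes (limma adjusted p = 0.461).

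Lhx5 (chromosome 5, 120431699 to 120441223), a LIM homeobox gene of the developing forebrain, showed the largest difference among the tested members. It stood at 38.2, 61.5, 38.3 and 32.4 TPM in Pomc replicates 1 to 4 and at 2.17 and 0.0501 TPM in Npy replicates 1 and 2. Every Pomc library was far above both Npy libraries, and the pair of Npy libraries differed from each other by a wide ratio at a low level. The Pomc mean was 42.6 ± 12.9 TPM (SD, n = 4), and the log2 difference was 4.54 ± 0.56 (SE, limma adjusted p = 0.0101). Its size depended on the low Npy values: it was 5.33 without Npy replicate 1 and 3.74 without Npy replicate 2, and 6.15 and 2.95 with pseudocounts of 0.1 and 5 TPM. Relative to Isl1 in the same library, a proportion that does not depend on how a library was scaled, Lhx5 reached 7.17 to 13.2% in Pomc neurons and 0.34 and 0.00833% in Npy neurons. The call ended without Pomc replicate 1 (adjusted p = 0.0509) or 3 (0.0523) and with a pseudocount of 0.1 TPM (0.0518), and over all alternatives the adjusted p ranged from 0.00188 to 0.0997. An antisense gene, Gm27199, overlaps exons of Lhx5 in the GENCODE annotation, and the sources used here do not say whether reads were counted by strand.

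Lhx1 (chromosome 11, 84518284 to 84525535), the close relative of Lhx5, had its higher values in the Npy libraries, in a difference that did not pass the test. It stood at 1.39, 0, 1.03 and 0 TPM in Pomc replicates 1 to 4 and at 9.07 and 5.21 TPM in Npy replicates 1 and 2. Both Npy libraries were above every Pomc library, in which the gene stood at 1.39 TPM or less. The log2 difference was -2.41 ± 0.71 (SE, limma adjusted p = 0.375), with an interval from -4.01 to -0.81. Of the sum of Lhx1 and Lhx5, Lhx5 made up 96.5 to 100% in the Pomc libraries and 19.3 and 0.953% in the Npy libraries.

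Lhx6 (chromosome 2, 36081953 to 36105408), a LIM homeobox gene of GABAergic neurons of the forebrain and tuberal hypothalamus, had its values in the Npy libraries, with at most a trace in Pomc libraries. It was listed at 0 in Pomc replicates 1, 3 and 4 and at 0.215 TPM in Pomc replicate 2, and it stood at 10.3 and 2.95 TPM in Npy replicates 1 and 2. The Npy libraries were both higher, although they differed from each other. The log2 difference was -2.67 ± 0.69 (SE) and did not pass (limma adjusted p = 0.273). With all 7 columns, which rest on the same Npy measurements, it did (adjusted p = 0.0339), and over all alternatives the adjusted p ranged from 0.0339 to 0.838. A gene annotated as misc_RNA, Gm27953, overlaps exons of Lhx6 on the same strand and has no row of its own in the table, so reads from it could not be told apart by strand. A set of markers of another cell type moved with the groups in the direction of Lhx6, Lhx1 and Isl1. All 6 oligodendrocyte precursor markers were higher in Npy libraries by limma, against 0.123% of all genes. All 6 passed the filter only through the Npy libraries. These markers summed to 228 and 207 TPM against 0.444 to 2.64 TPM, with Olig2 and Cspg4 listed at 0 in all 4 Pomc libraries. Their part in the values of Lhx1, Lhx6 and Isl1 was not tested.

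Lhx2 (chromosome 2, 38339281 to 38369733), which patterns forebrain progenitors and tanycytes, was present at a low level in all 6 libraries. It stood at 6.94, 11.8, 10.5 and 24.3 TPM in Pomc replicates 1 to 4 and at 5.11 and 6.95 TPM in Npy replicates 1 and 2. Only Pomc replicate 1 lay within the Npy range, and Pomc replicate 4 was the highest. The log2 difference was 0.91 with an interval from -0.44 to 2.26 (limma adjusted p = 0.808). Lhx9 (chromosome 1, 138825186 to 138848577) reached 1.57 TPM in Pomc replicate 3 and 0.501 TPM in Npy replicate 1 and was listed at 0 in the other 4 libraries, so it was not tested.

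Among the LIM-only genes the difference lay in Lmo3 (chromosome 6, 138362918 to 138581968), which encodes a LIM-only protein of forebrain neurons. It stood at 224, 151, 147 and 144 TPM in Pomc replicates 1 to 4 and at 48.8 and 47.7 TPM in Npy replicates 1 and 2. Every Pomc library was well above both Npy libraries, which agreed closely with each other, and Pomc replicate 1 stood apart from the other Pomc libraries. The Pomc mean was 167 ± 38.3 TPM (SD, n = 4), and the log2 difference was 1.74 ± 0.23 (SE, limma adjusted p = 0.0136). Without Pomc replicate 1 it was 1.59 and still passed (0.0278). The call ended with 1 prior variance for all genes (0.117), without Npy replicate 1 (0.0555) and without Npy replicate 2 (0.155), where the Npy group is a single library, and over all alternatives the adjusted p ranged from 0.00188 to 0.155.

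Lmo4 (chromosome 3, 144188530 to 144205220), a LIM-only gene of many developing neurons, stood at 27.6, 37.8, 34.6 and 49.1 TPM in Pomc replicates 1 to 4 and at 39.5 and 25.1 TPM in Npy replicates 1 and 2. The groups overlapped in part, with Npy replicate 2 the lowest of the 6 libraries and Pomc replicate 4 the highest, and the log2 difference of 0.21 had an interval from -0.56 to 0.97 (limma adjusted p = 0.922). Lmo1 (chromosome 7, 109138572 to 109175207) had the widest spread relative to its mean among the members above 1 TPM in Pomc neurons, at 29.3 ± 30.8 TPM (SD, n = 4). It stood at 4.93, 74.1, 23.7 and 14.5 TPM in Pomc replicates 1 to 4, so that both Npy libraries, at 14.6 and 25.3 TPM, fell inside the Pomc range. Its interval from -1.91 to 1.92 leaves large differences in either direction possible (adjusted p = 0.999), and the sign of its log2 difference, 0.00 here, turned to -0.62 without Pomc replicate 2.

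Ldb1 (chromosome 19, 46031570 to 46045214), the adaptor itself, was abundant in both groups. It stood at 188, 323, 218 and 229 TPM in Pomc replicates 1 to 4 and at 222 and 244 TPM in Npy replicates 1 and 2. The Npy libraries lay inside the Pomc range, of which Pomc replicate 2 was the top. The log2 difference was 0.01 with an interval from -0.50 to 0.52 (limma adjusted p = 0.993), so differences of less than that size cannot be told from 0. Exons of Ldb1 overlap the gene Pprc1 on the opposite strand, which stood at 20.2 to 35.3 TPM.

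**Figure D2:**
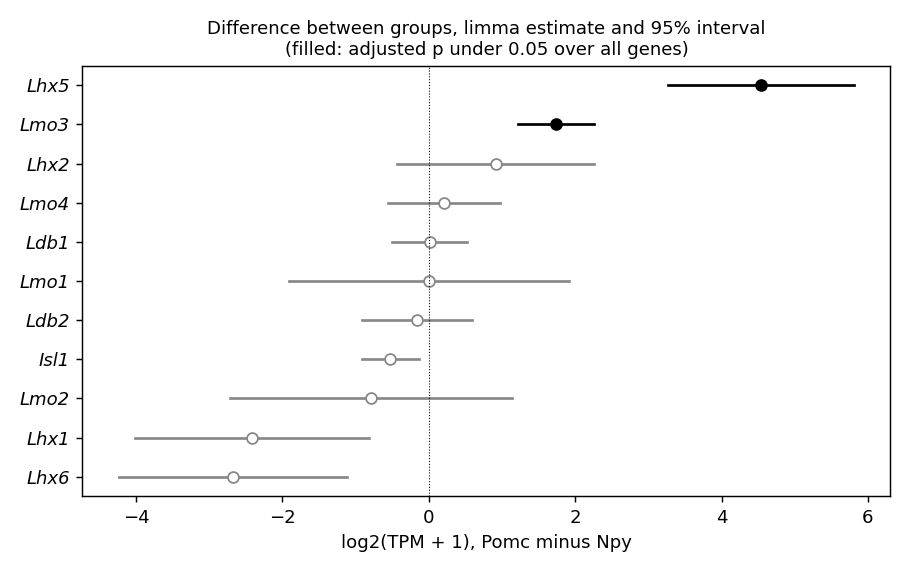
Differences in log2(TPM + 1) between Pomc and Npy libraries for the 9 tested members and the other LIM family genes Lmo2 and Ldb2, as limma estimates with 95% intervals on the x axis (filled black points passed an adjusted p of 0.05 over all genes). The estimates run from -2.67 for Lhx6 to 4.54 for Lhx5, and the intervals of Lhx2, Lmo4, Ldb1, Lmo1, Ldb2 and Lmo2 include 0.

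An exact two-sided permutation test over the 15 splits of 4 against 2 libraries cannot give a p under 0.0667. It gave this smallest value for Isl1, Lhx1, Lhx5, Lhx6 and Lmo3, and 0.267 for Lhx2, 0.6 for Lmo4 and 1 for Lhx9, Lmo1 and Ldb1.

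The promoter sequences of 4 members are shown for the contrast between them: Lmo3, which was higher in Pomc neurons, Lhx6, listed almost only in Npy libraries, the abundant Isl1, and Lmo1, which varied widely among Pomc libraries. Each is the 250 bases before a RefSeq start site (build GRCm38.p6, all on the minus strand), printed 5′ to 3′. Windows were found for 9 of the 10 members (17 windows), all but Lhx5. Capitals mark TAATTA, the core sequence of many homeodomains, and CAGCTG, the E-box letters known for Nhlh factors. Both read the same on the opposite strand and cannot overlap with each other here.
Lmo3, chr6:138581969-138582218: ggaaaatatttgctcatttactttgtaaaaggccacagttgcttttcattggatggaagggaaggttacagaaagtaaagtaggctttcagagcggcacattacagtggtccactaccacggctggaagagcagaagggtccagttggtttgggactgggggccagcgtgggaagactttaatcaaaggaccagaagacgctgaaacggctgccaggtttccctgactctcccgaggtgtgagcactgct
Lhx6, chr2:36105409-36105658: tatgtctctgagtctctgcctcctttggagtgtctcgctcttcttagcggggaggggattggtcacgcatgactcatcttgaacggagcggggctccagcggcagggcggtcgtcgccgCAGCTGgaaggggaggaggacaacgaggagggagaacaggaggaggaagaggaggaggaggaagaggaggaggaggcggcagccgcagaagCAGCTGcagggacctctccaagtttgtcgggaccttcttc
Isl1, chr13:116309689-116309938: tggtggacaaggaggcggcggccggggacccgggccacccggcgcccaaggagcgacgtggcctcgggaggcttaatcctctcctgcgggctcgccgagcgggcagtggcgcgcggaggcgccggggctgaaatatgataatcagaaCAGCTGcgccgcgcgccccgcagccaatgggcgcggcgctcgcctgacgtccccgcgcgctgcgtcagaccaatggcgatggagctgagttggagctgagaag
Lmo1, chr7:109175208-109175457: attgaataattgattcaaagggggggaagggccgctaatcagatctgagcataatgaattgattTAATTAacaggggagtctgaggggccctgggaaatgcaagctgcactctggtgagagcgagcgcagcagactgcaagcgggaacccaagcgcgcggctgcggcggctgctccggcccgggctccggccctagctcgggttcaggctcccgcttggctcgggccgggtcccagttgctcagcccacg
Of the 9 members with a window, TAATTA was in Lmo1 alone, in 2 overlapping windows of the 17, against 4.84% of 32851 windows of all genes. CAGCTG was also in 2 of the 17 windows, against 13% of all windows, with 1 match in Isl1 and 2 in the window of Lhx6 printed here, while the other 2 windows of Lhx6 held none. The Lmo3 window holds neither. The 17 windows differ in base composition, from 46% G and C in a window of Lhx6 to 82.4% in one of Lmo4, and those printed run from 50% in Lmo3 to 71.2% in Isl1. A match describes letters in the window and no site.

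Within each library the members were also set against each other, which removes any difference in scaling between libraries. These proportions are sums over genes chosen with results known and are given as values without a test. They are ratios of transcripts and do not give the proportions of the proteins. The summed TPM of the 6 LIM homeobox genes per TPM of Ldb1 was 2.19, 1.67, 2.28 and 2.22 in Pomc replicates 1 to 4 and 2.99 and 2.53 in the Npy libraries. Both Npy libraries were above the Pomc range, and Isl1 made up most of each sum, at 86.4 to 89.6% in Pomc and 95.9 and 97.5% in Npy libraries. The summed LIM-only genes per Ldb1 went the opposite way, at 1.36, 0.814, 0.944 and 0.905 in Pomc replicates 1 to 4 against 0.463 and 0.402. With Lmo3 taken out of the sum, Lmo1 and Lmo4 together per Ldb1 overlapped between the groups, at 0.173 to 0.346 against 0.244 and 0.206. LIM homeobox transcripts per LIM-only transcript were therefore at 1.60 to 2.45 in Pomc neurons and at 6.46 and 6.29 in Npy neurons.

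After Isl1 the make-up of the LIM homeobox genes differed. The other 5 summed to 46.6 to 73.5 TPM across Pomc libraries and to 27.2 and 15.2 TPM in Npy replicates 1 and 2. Lhx5 held the second place behind Isl1 in all 4 Pomc libraries and made up 57.1 to 83.6% of that remainder. In Npy replicate 1 the second place was held by Lhx6 and in Npy replicate 2 by Lhx2, and Lhx5 made up 7.97 and 0.33%. Lmo3 was the most abundant LIM-only gene in every library, with 57.5 to 87.3% of their sum in Pomc and 47.4 and 48.7% in Npy libraries.

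**Figure D3:**
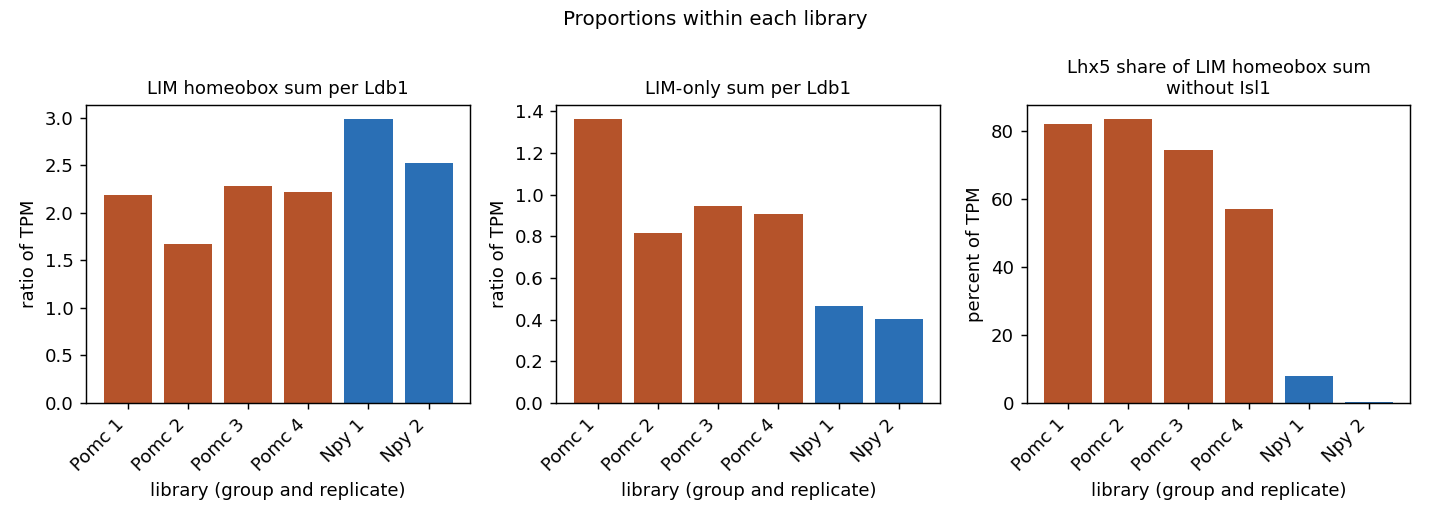
Ratios of TPM within each of the 6 libraries (bars from 0; orange, Pomc; blue, Npy): LIM homeobox genes per Ldb1, LIM-only genes per Ldb1, and the percent of the LIM homeobox sum without Isl1 that was Lhx5. The Npy libraries are above the Pomc libraries in the first panel (2.99 and 2.53 against at most 2.28) and below them in the second and the third.

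Other genes of the LIM family were few in these neurons. Of 8 further family genes, Isl2, Lhx3 and Lhx8 had no row of that symbol, and Lhx4, Lmx1a and Lmx1b were listed at 0 in all 6 libraries. Ldb2, the second adaptor, stood at 22.8 to 44.9 TPM across Pomc libraries and at 40.0 and 36.0 TPM in Npy replicates 1 and 2 (log2 -0.16, interval -0.92 to 0.59, limma adjusted p = 0.934), well under Ldb1 in each library. Lmo2, which acts with Ldb1 in blood and endothelial cells, stood at 11.4, 1.41, 1.25 and 2.58 TPM in Pomc replicates 1 to 4 and at 3.38 and 9.56 TPM in Npy replicates 1 and 2 (adjusted p = 0.877). The 8 endothelial and pericyte markers summed to 11.7 TPM in Pomc replicate 1, 8.71 in Npy replicate 2 and 1.31 to 6.37 in the other libraries. Their part in the Lmo2 values was not tested.

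Of 18 cofactors and DNA-binding partners of LIM complexes, 14 were tested, 1 was higher in Pomc neurons, none was higher in Npy neurons by limma, and 13 did not pass (of the 14, 2 had an unadjusted p under 0.05, Nhlh2 among them). Their median log2 difference was 0.02. The gene that passed was Nhlh2, a helix-loop-helix factor of a family that binds LIM-only proteins, at 90.3, 114, 140 and 161 TPM in Pomc replicates 1 to 4 against 1.82 and 3.29 TPM (log2 5.16 ± 0.34 SE, limma adjusted p = 0.000524). The single-stranded DNA-binding proteins that stabilise Ldb1 overlapped between the groups. Ssbp3, the most abundant of them, had 225 to 319 TPM across Pomc libraries and 264 and 316 TPM in Npy replicates 1 and 2 (interval of the log2 difference -0.47 to 0.41). Rlim, a ubiquitin ligase that marks Ldb1 for degradation, had 70.7 to 109 TPM against 100.3 and 85.4 TPM (interval -0.56 to 0.49). Lyl1, Gata2 and Gata3, partners of LIM-only complexes in blood cells and some neurons, were listed at 0 in all 6 libraries.

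Genes of the GABAergic programme to which Lhx6 belongs had log2 differences below 0 in 10 of 13 tested cases, with a median of -1.48 against 0.02 over all genes. Of the 13, 1 passed in each direction and 11 did not. Dlx1, which encodes a homeodomain factor of GABAergic progenitors, was lower in Pomc neurons (10.9 to 23.8 TPM against 119.5 and 138.5, log2 -2.95 ± 0.38 SE, limma adjusted p = 0.0131). Nkx2-1, the homeobox gene that acts above Lhx6 in the ventral forebrain and is required in the arcuate nucleus, was higher in Pomc neurons. It stood at 182 to 358 TPM against 46.5 and 80.1 TPM (log2 2.10 ± 0.30 SE, adjusted p = 0.0211). Lhx6 and Nkx2-1 thus had log2 differences of opposite sign. The call of Nkx2-1 ended without Pomc replicate 1, 2 or 3 or Npy replicate 1 (adjusted p 0.0512 to 0.0819), with no filter (0.0848) and with 1 prior variance (0.15). That of Dlx1 ended without either Npy replicate (adjusted p 0.0578 and 0.26) and with 1 prior variance (0.0625). Over all alternatives the adjusted p ranged from 0.00445 to 0.15 for Nkx2-1 and from 0.00141 to 0.26 for Dlx1.

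**Figure D4:**
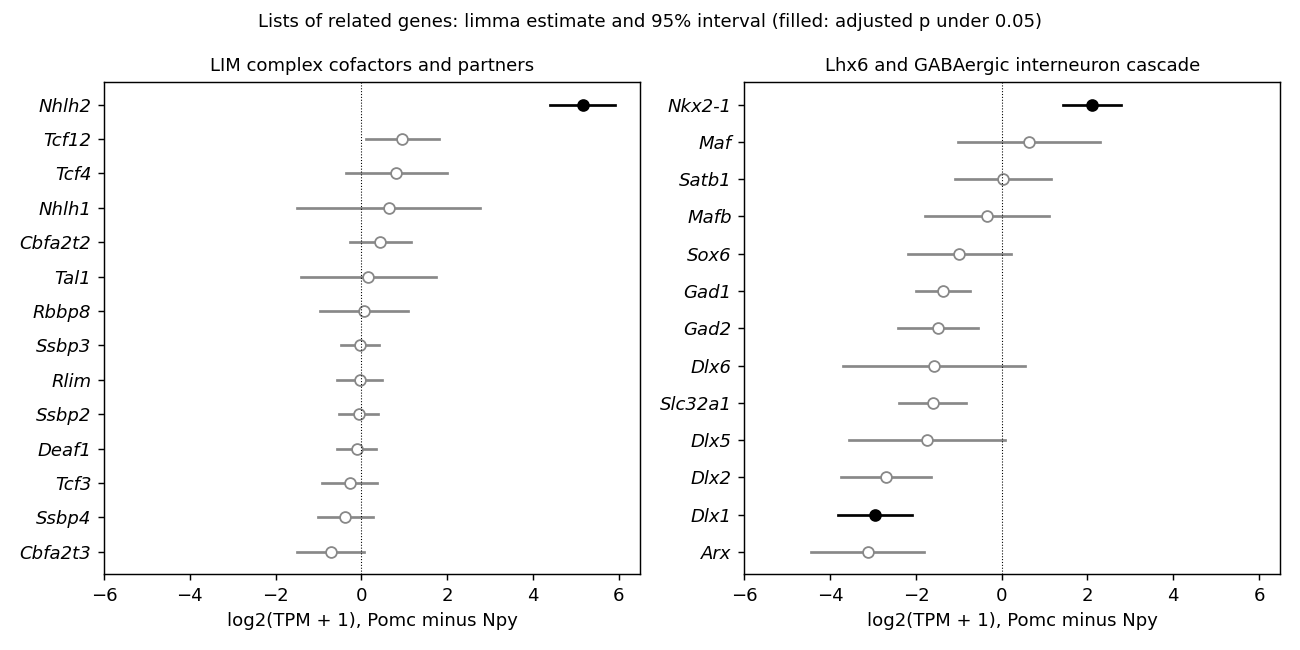
Differences in log2(TPM + 1), Pomc minus Npy, on the x axis for the 14 tested cofactors and partners of LIM complexes (left) and the 13 tested genes of the GABAergic programme (right), as limma estimates with 95% intervals (filled black points passed an adjusted p of 0.05 over all genes). Nhlh2 at 5.16 is the only filled point on the left, and Nkx2-1 at 2.10 and Dlx1 at -2.95 are those on the right.

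Genes that mark the mammillary region, where Lhx1 and Lhx5 are best known, were mostly under the filter in these libraries. Of 11 genes with a row, 3 were tested and none passed by limma, with 2 at an unadjusted p under 0.05 (7.36% of all genes). In all 3, Nkx2-4, Lef1 and Sim1, every Pomc library was above both Npy libraries (8.05% of all genes), the direction of Lhx5. Sim1 passed the filter only through Pomc libraries and was near 0, at 0.173 to 1.34 against 0.0559 and 0 TPM. Nkx2-4 stood at 23.9 to 100.4 TPM in Pomc and at 19.0 and 19.6 TPM in Npy libraries, and Lef1 at 3.76 to 11.1 against 1.12 and 3.20 TPM. Lmx1b and Wnt8b were listed at 0 in all 6 libraries. Lhx9 acts in orexin neurons of the lateral hypothalamus, for which 5 peptide genes were listed. Hcrt, which encodes orexin, was listed at 0 in all 4 Pomc libraries and in Npy replicate 2. It stood at 0.423 TPM in Npy replicate 1, where Lhx9 stood at 0.501 TPM. Lhx9 was highest in Pomc replicate 3 (1.57 TPM), where Hcrt was listed at 0. The most abundant tested peptide genes were Nts, at 0 to 6.83 TPM against 11.8 and 7.38 TPM, and Tac1, at 0 to 7.25 against 4.38 and 0 TPM, and neither passed.

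The genes with the profile most like a called member, by the root mean square difference of centred log2(TPM + 1) over the 6 libraries, were named for Lhx5 and Lmo3. For Lhx5 they were Nr5a1 (0.40), a nuclear receptor gene of the ventromedial hypothalamus, Slc17a6 (0.42), the vesicular glutamate transporter VGLUT2, and Prdm13 (0.43), a zinc finger factor. Prdm13 stood at 48.1, 112, 60.5 and 32.9 TPM in Pomc replicates 1 to 4 and at 1.40 and 0 TPM in Npy replicates 1 and 2. Among the Pomc libraries Prdm13 was highest in replicate 2 and lowest in replicate 4, as was Lhx5. The 2 closer genes did not share that top library. Nr5a1 was highest in Pomc replicate 1 (167 TPM) and Slc17a6 in Pomc replicate 3 (67.0 TPM). All were picked by likeness over these same libraries, so a shared order is no separate result. For Lmo3 they were Lrig1 (0.09), Nt5dc3 (0.15) and Prokr1 (0.20), none of which passed the test itself (limma adjusted p = 0.397, 0.074 and 0.568). Lrig1, a regulator of growth factor receptors, followed Lmo3 at a lower level, at 9.35 to 14.6 TPM in the Pomc group and at 2.68 and 2.57 TPM in Npy replicates 1 and 2.

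Markers of further cell types were set beside the members. The 12 genes of radial glia and tanycytes, where Lhx2 is known to act, summed to 996 to 1351 TPM in the Pomc and to 953 and 830 TPM in Npy replicates 1 and 2. By limma 1 of the 12, Sox2, was higher in Pomc neurons (0.289% of all genes), and 11 did not pass. The part of these 12 genes in Lhx2 and Lhx5 was not tested. Of the 12 log2 differences, 7 were below 0 (median -0.26). The genes whose groups did not overlap are named after their values were seen. In 3 genes both Npy libraries were above every Pomc library (7.86% of all genes). These were Fabp7 (323 and 176 against 1.61 to 61.6 TPM), Nes (49.0 and 40.0 against 14.6 to 26.4 TPM) and Hes5 (14.0 and 28.9 against 0.999 to 9.57 TPM). In 2 genes every Pomc library was above both Npy libraries (8.05% of all genes). These were Sox2 (210 to 294 against 39.3 and 42.5 TPM) and Six3 (236 to 365 against 117 and 157 TPM). Microglial markers summed to 43.0 TPM in Pomc replicate 4, the library with the highest Lhx2 and Lmo4, and to at most 9.97 TPM elsewhere. In that library P2ry12 stood at 22.7, Csf1r at 13.1 and Cx3cr1 at 6.55 TPM, while Aif1, C1qa and Tyrobp were listed at 0. C1qb went the other way, at 0.680 TPM there against 2.71 and 8.33 TPM in Npy replicates 1 and 2. The part of microglial markers in the Lhx2 and Lmo4 values was not tested. The 10 pan-neuronal genes summed to 5050 to 5886 TPM against 4491 and 3773 TPM. Of the 9 arcuate markers, Pomc, Tbx3 and Nkx2-1 were higher in Pomc by limma (3, against 0.289% of all genes). Ghrh and Sst were higher in Npy (2, against 0.123%). Ghrh, in the filter only through Npy libraries, stood at 96.8 and 112 against at most 0.296 TPM. Sst stood at 2108 and 3187 against 433 to 653 TPM. The other 4, Npy (limma adjusted p = 0.418), Agrp, Th and Otp, did not pass, and Agrp overlapped. Their part in Isl1, Lhx1 and Lhx6 was not tested. Of the pituitary genes, where Isl1, Lhx3 and Lhx4 are also expressed, Pou1f1, Cga, Lhb, Fshb and Pitx1 were listed at 0 in all 6 libraries, and Tbx19 reached at most 9.30 TPM.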

How the data were processed

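RNA-seq of sorted E15.5 arcuate neurons was analysed from the authors' table, which the authors deposited without a unit. The deposited values were taken as TPM from the values, since 6 of the 7 columns sum to 1000000 and short RNA genes lead. The submitters' processing notes list HISAT2, the mm10 build and edgeR 3.8 without saying what each did. For the counter, annotation and use of strand the sources used here give nothing. Rows of 2 symbols that occur more than 1 time (4 rows) were left out. limma 3.58.1 (R 4.3.3), with its trend option, in which the prior variance depends on expression, was fitted to log2(TPM + 1) of 4 Pomc and 2 Npy libraries, over all genes with at least 1 TPM in at least 2 libraries, and was tested on simulated data. A fold change on this scale understates the change of low genes. Gene positions and overlaps came from GENCODE M21 and promoters from RefSeq (GRCm38.p6). Members and lists were chosen with earlier results of these data known. Named were all LIM genes, list genes that passed (otherwise the 2 most abundant), and the 3 genes most like each called member. Cell type markers and genes discussed beside them are named additionally. Alternatives were other pseudocounts, filters, scalings and priors, all 7 columns, a replicate block and leaving out each library.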

Additional observations from a re-analysis of the deposited data

Results flagged for a closer look

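The Pomc library farthest from the others was set against the range of the 4 Pomc libraries in 12 LIM family genes, and 4 stood out, where chance gives about 1 in 20. In Pomc replicate 1, Lmo3 was at 224 TPM, while replicates 2 to 4 lay between 144 and 151 TPM. The same library had 11.4 TPM of Lmo2, for which replicates 2 to 4 lay between 1.25 and 2.58 TPM. Lhx6 stood at 0.215 TPM in Pomc replicate 2 and Lhx9 at 1.57 TPM in Pomc replicate 3, and in both genes the other 3 Pomc libraries were listed at 0, so that any value above 0 stands out and the chance rate does not apply.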

How the results depend on the processing

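With 4 against 2 libraries the fit called 57 genes (40 higher in Pomc, 17 in Npy), 2 of them members, both higher in Pomc. A pseudocount of 0.1 TPM gave 37 genes (8 higher in Npy) and 1 member, Lmo3; no filter gave 33 (22 and 11); the stricter filter (5 TPM, at least 3 libraries) gave 5 higher in Npy; 1 prior variance gave 21 higher in Pomc and 1 member, Lhx5; all 7 columns gave 205 (110 and 95) and added 1 member higher in Npy, Lhx6. The replicate block gave 12 genes (10 and 2) and 0 members higher in Pomc (Lhx5 4.76, adjusted p = 0.0997; Lmo3 1.91, 0.122), with no member called in either direction; it also ended the calls of Nkx2-1 (adjusted p = 0.0576) and Dlx1 (0.133). The labels do not say what a replicate number shares, so the numbers were not taken as pairs. Deviations of same-numbered libraries correlated at -0.04 and -0.03 across genes. Npy replicates 1 and 2 deviate from their mean by the same amount in opposite directions, so these correlations cannot decide whether same-numbered libraries are pairs. Leaving out 1 library gave 22 to 69 genes (20 to 68 and 1 to 19), 1 to 2 members higher in Pomc and 0 higher in Npy; with 1 Npy library left, it is assumed to vary like the Pomc group, and genes found only in Npy libraries can miss the filter, as Lhx6 did. Signs near 0 turned: Lmo1 -0.026 (pseudocount 0.1), -0.053 (without short RNA genes) and -0.030 (all 7 columns), and -0.62 to 0.60 leaving out 1 library; Ldb1 -0.045 (without short RNA genes), -0.0048 (quantile normalization) and -0.0077 (all 7 columns), and -0.14 to 0.12; Ldb2 0.020 with the block and -0.30 to 0.017; Lmo4 -0.11 to 0.53; Tac1 -0.11 (all 7 columns), -0.24 (block) and -1.18 to 1.25. Lhx5, Lmo3, Isl1, Lhx1, Lhx2 and Lhx6 kept their direction in every alternative that tested them. The cause of these changes was not tested. Depth is not given in TPM, so values near 0 of Lhx6, Lhx9 and Lhx1 have no counting error.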
